A study of Mus musculus with 18 samples.

Results

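Long-term haematopoietic stem cells (LT cells) from mice given tamoxifen were compared with LT cells from mice given corn oil, across all 14419 genes of the deposited table. The comparison used 6 of the study's 18 RNA-seq libraries, chosen by the labels: 3 tamoxifen libraries (A, B and C) and 3 oil libraries (A, B and C). All mice were adult C57BL/6 males, and LT cells were isolated from bone marrow after 2 weeks of treatment. The labels name no genetic change in either group. The other 12 libraries held short-term stem cells (ST cells, 2 weeks) and multipotent progenitors (MPPs, 1 week), with 3 libraries for tamoxifen and 3 for oil in each population. The design text calls the 3 libraries of a group biological replicates. Whether a library came from 1 mouse or from pooled mice is not stated in the sources used here. The dose and the sort gates are not stated either. The p-values therefore measure the spread between libraries, which the main fit estimated over all 18 libraries and not the 6 LT libraries alone.

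Tamoxifen binds estrogen receptors and acts as an agonist or an antagonist depending on the tissue. LT cells are the mostly quiescent cells at the top of the blood hierarchy, able to rebuild all blood lineages for the life of the host. Their progeny first become short-term stem cells and multipotent progenitors, which divide more often and start to express genes of the lymphoid and myeloid lineages. Estrogen receptor alpha is expressed by mouse haematopoietic stem cells, and its ligands are known to alter their division. The comparison addresses which transcripts of LT cells differ after tamoxifen.

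The values below are normalised CPM, the authors' scaled read counts. Reads in the listed genes numbered 3203195 to 3857229 in the tamoxifen and 3361891 to 4560482 in the oil libraries of LT cells. At that depth 1 read was worth 0.208 to 0.301 normalised CPM. The label of the LT libraries was checked in oil against a list of 27 genes known from long-term stem cells. In 20 of them every LT library lay above every ST library, and in 24 above every MPP library. Slamf1, the stem cell marker CD150, averaged 25.5 ± 6.35 in LT oil, 19.1 ± 9.57 in ST oil and 0.785 ± 0.455 in MPP oil (SD, n = 3 each). Cd48, a marker of more mature progenitors, averaged 11.2 ± 3.58 in LT oil, 99.6 ± 15.3 in ST oil and 72.0 ± 9.32 in MPP oil. Flt3, a receptor of lymphoid-primed progenitors, averaged 83.1 ± 34.4 in LT oil, 142 ± 52.3 in ST oil and 681 ± 31.0 in MPP oil. Cd48 was lowest in LT libraries, while the spreads of Slamf1 and Flt3 in LT and ST libraries overlapped and stood apart from MPPs. Genes of early red cells also stood high in LT libraries: 22 of them summed to 2609 to 3162 in LT oil, 805 to 1037 in ST oil and 526 to 650 in MPP oil.

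Among the LT libraries tamoxifen library A stood apart. On the first principal component of the 6 LT libraries, which held 42.1% of the variance, it lay at 64.5 and the other 5 between -18.3 and -6.52. Mitochondrial mRNAs took 3.99% of its reads, 1.61% and 1.71% in tamoxifen libraries B and C, and 1.55% to 1.64% in oil. Mitochondrial ribosomal RNAs took 25.5% of its reads, 17.7% and 18.7% in tamoxifen libraries B and C, and 18.2% to 18.7% in oil. Relative to the mean of tamoxifen libraries B and C, its values were lower for genes with short transcripts (median log2 difference -0.36 in the shortest of 5 equal groups) and higher for genes with long ones (0.22 in the longest). The 79 ribosomal protein genes, chosen after their values were seen, summed to 19364, 35234 and 39057 normalised CPM in tamoxifen libraries A, B and C and to 29275, 28756 and 28302 in oil. The main counts below are given with and without this library.

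**Figure D1:**
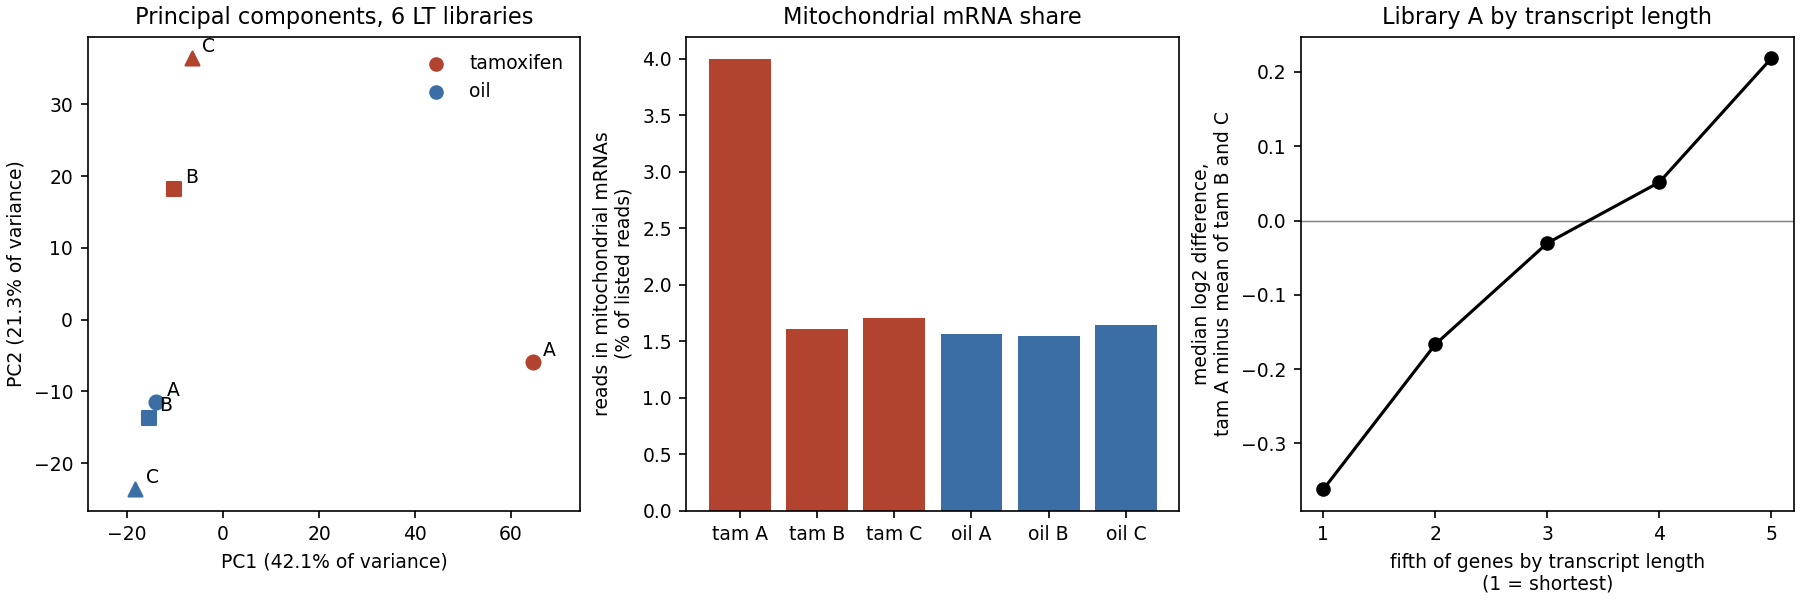
Tamoxifen library A against the other LT libraries. Left, the first principal components of the 6 LT libraries (tamoxifen red, oil blue; letters name the libraries). Middle, the percentage of reads in mitochondrial mRNAs, 3.99% in tamoxifen library A and at most 1.71% in the other LT libraries. Right, the median log2 difference of library A from the mean of tamoxifen libraries B and C in 5 equal groups of genes by transcript length.

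After 2 weeks of tamoxifen 60 genes passed an adjusted p of 0.05 in LT cells (limma with Benjamini-Hochberg adjustment over 14419 genes), which is 0.416% of the genes tested. Of these, 20 rose (0.139%) and 40 fell (0.277%). The change was over 2-fold in 9 of the rising and 26 of the falling genes. At an unadjusted p under 0.05 there were 1952 genes, 922 higher and 1030 lower. The 3 tamoxifen and the 3 oil libraries did not overlap in 2653 genes (18.4%), 1303 higher (9.04%) and 1350 lower (9.36%). The median log2 fold change over all genes was -0.02, and 48.1% lay above 0. With edgeR on the recovered reads 58 genes passed (0.402%), 26 higher and 32 lower, and with DESeq2 178 were higher and 122 lower. With scaling to totals without mitochondrial genes, 21 were higher and 70 lower. A limma fit of the 6 LT libraries alone, with its own estimate of the spread, called 1 higher and 2 lower genes.

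Without tamoxifen library A 51 genes passed (0.354%), 21 higher and 30 lower. Both fits called 25 genes, 5 higher and 20 lower, while 35 passed only with library A and 26 only without it. The called genes kept their direction in every alternative fit that tested them. The filter at a mean above 5 tested 54 of the 60, and DESeq2 53. In all 20 rising and all 40 falling genes the tamoxifen and oil libraries of LT cells did not overlap. Leaving out 1 library could therefore not reverse a direction. Of the 60 genes 0 passed in all alternatives. The call of 7 genes held in each of the 6 fits that left out 1 LT library: Dhrs3, Pdgfrb, 5830405N20Rik, BC035044, Atp8b4, Mdga1 and Trbc1, all of them lower with tamoxifen. Of the 60 calls, 42 were lost without oil library A, 32 without oil library B, 51 without oil library C, 35 without tamoxifen library A, 28 without tamoxifen library C and 0 without tamoxifen library B. The number of genes called was 20 without oil library A, 33 without oil library B, 9 without oil library C and 330 without tamoxifen library B.

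Falling genes included enzymes of retinoid metabolism and receptors. Dhrs3, the enzyme that reduces retinal to retinol, measured 2.53, 2.14 and 1.65 normalised CPM in tamoxifen libraries A, B and C, against 18.2, 7.94 and 20.2 in oil libraries A, B and C. All tamoxifen libraries lay below all oil libraries (log2 fold change -2.32 ± 0.29 (SE), limma adjusted p = 0.000131, 8.74e-08 to 0.0674 over the 22 alternatives that tested it). Cyp26b1, an enzyme that degrades retinoic acid, measured 0.149, 3.00 and 0.15 normalised CPM with tamoxifen and 10.3, 4.98 and 5.15 with oil. Tamoxifen libraries A and C held 0 reads of it, and the groups did not overlap (log2 fold change -2.10 ± 0.42 (SE), limma adjusted p = 0.0171, 0.000772 to 0.281 over the 20 alternatives that tested it). These were the 2 of 14 measured retinoid genes that passed, and both fell. Pdgfrb, a receptor for platelet-derived growth factor, measured 4.01, 6.42 and 2.26 normalised CPM in tamoxifen libraries A, B and C, against 18.7, 18.98 and 21.6 in oil libraries A, B and C. The 3 oil libraries lay close together, and every tamoxifen library was well below them (log2 fold change -2.06 ± 0.27 (SE), limma adjusted p = 0.00019, 2.34e-07 to 0.0674 over the 22 alternatives that tested it). Kit, the receptor for stem cell factor and part of most stem cell sorts, measured 759, 782 and 682 normalised CPM with tamoxifen and 1032, 1075 and 1152 with oil. The groups did not overlap, and the tamoxifen mean was 0.682 of the oil mean (log2 fold change -0.55 ± 0.11 (SE), limma adjusted p = 0.0159, 0.000105 to 0.238 over the 22 alternatives that tested it). Mc5r, a melanocortin receptor, also fell, with 10.6 ± 7.03 with tamoxifen and 25.5 ± 7.14 with oil (SD, n = 3 each). The list of 28 measured receptor tyrosine kinases, cytokine receptors and other receptors had these 3 falling members and none rising. In it 9 lay above 0 and the median was -0.13 on the log2 scale. This list and the retinoid list were chosen with earlier results of these data known, so their counts are not independent of the calls. Without library A Pdgfrb and Kit passed, and of the retinoid genes Dhrs3. With 1 LT library left out, the highest adjusted p was 0.139 without oil library A for Cyp26b1, 0.128 without oil library C for Kit and 0.24 without oil library C for Mc5r.

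Several falling genes are known from lymphocytes and their precursors. 5830405N20Rik, now named Tespa1, takes part in signalling from the T cell receptor in thymocytes, and measured 3.42, 2.43 and 2.26 normalised CPM in tamoxifen libraries A, B and C, against 10.9, 7.67 and 17.7 in oil libraries A, B and C (log2 fold change -1.77 ± 0.24 (SE), limma adjusted p = 0.000347, 5.64e-06 to 0.143 over the 22 alternatives that tested it). Trbc1, a constant segment of the T cell receptor beta chain, measured 1.34, 2.43 and 1.35 normalised CPM with tamoxifen and 11.6, 9.83 and 9.89 with oil (log2 fold change -2.10 ± 0.34 (SE), limma adjusted p = 0.00222, 0.000537 to 0.066 over the 20 alternatives that tested it). Its near-identical neighbour Trbc2 measured 0.744, 1.28 and 1.35 normalised CPM with tamoxifen and 1.77, 2.29 and 4.60 with oil, and reads can be split between the pair. Both genes were low, and no tamoxifen library reached an oil library in either. Only Trbc1 passed. Nlrc3, a receptor of the NOD-like family that dampens immune signalling, measured 2.53, 4.99 and 3.16 normalised CPM with tamoxifen and 14.7, 8.21 and 17.1 with oil (log2 fold change -1.63 ± 0.28 (SE), limma adjusted p = 0.006). Its oil libraries spread widely and still lay above every tamoxifen library. Plcg1, the phospholipase downstream of antigen and growth factor receptors, measured 41.8, 62.1 and 55.2 normalised CPM with tamoxifen and 92.2, 87.1 and 89.0 with oil (log2 fold change -0.76 ± 0.15 (SE), limma adjusted p = 0.0153); it shares exon sequence with Zhx3 on the opposite strand, and the strand setting of the counting is not given. Dntt, the polymerase that adds bases at antigen receptor joints, measured 1.34, 6.71 and 0.752 normalised CPM with tamoxifen and 15.9, 23.8 and 17.4 with oil. Tamoxifen library B held most of its tamoxifen reads and still lay below every oil library (log2 fold change -2.65 ± 0.47 (SE), limma adjusted p = 0.0324). The kinase gene Syk (listed as Sykb), Satb1, a chromatin organiser of early lymphoid cells, Themis, a thymocyte signalling protein, and Rltpr (now Carmil2) fell too, by 0.66, 1.28, 1.53 and 0.87 on the log2 scale. In bulk libraries fewer cells of a kind and less RNA per cell cannot be told apart. Leaving out 1 LT library raised the adjusted p at most to 0.0722 without oil library C for Nlrc3, 0.0912 without oil library A for Plcg1, 0.124 without oil library C for Dntt and 0.13 without oil library C for Satb1.

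Further falling genes encode membrane and extracellular proteins. Atp8b4, a phospholipid flippase, measured 5.80, 5.85 and 5.56 normalised CPM in tamoxifen libraries A, B and C, against 22.2, 20.6 and 28.8 in oil libraries A, B and C. The tamoxifen libraries nearly coincided and the oil libraries lay far above them (log2 fold change -1.87 ± 0.24 (SE), limma adjusted p = 0.000608, 4.38e-07 to 0.165 over the 22 alternatives that tested it). Mmp2, a gelatinase of the extracellular matrix, measured 2.83, 2.71 and 2.86 normalised CPM with tamoxifen and 11.4, 9.29 and 14.1 with oil (log2 fold change -1.71 ± 0.28 (SE), limma adjusted p = 0.00312). In Mmp2 the tamoxifen libraries were again close to each other. Mdga1, a membrane-anchored protein of the immunoglobulin superfamily, measured 40.3, 46.7 and 44.4 normalised CPM with tamoxifen and 87.0, 71.7 and 95.7 with oil (log2 fold change -0.93 ± 0.14 (SE), limma adjusted p = 0.000609). Adam11, a catalytically inactive member of the ADAM family, measured 7.88, 14.4 and 7.97 normalised CPM with tamoxifen and 24.7, 20.6 and 32.7 with oil (log2 fold change -1.31 ± 0.23 (SE), limma adjusted p = 0.00854). Slc43a2, a transporter of large neutral amino acids, measured 36.1, 36.7 and 34.1 normalised CPM with tamoxifen and 70.8, 57.7 and 64.5 with oil (log2 fold change -0.83 ± 0.16 (SE), limma adjusted p = 0.0153). Slc43a2 and Mdga1 stood at higher levels, with narrow groups. Dpp4, the surface peptidase CD26 that inactivates the homing chemokine Cxcl12, measured 30.8, 31.5 and 17.6 normalised CPM with tamoxifen and 51.2, 48.1 and 62.5 with oil (log2 fold change -1.03 ± 0.20 (SE), limma adjusted p = 0.0159). In each of these 6 genes every tamoxifen library lay below every oil library. BC035044 measured 3.42, 6.42 and 3.76 normalised CPM with tamoxifen and 18.2, 11.7 and 14.6 with oil (log2 fold change -1.54 ± 0.22 (SE), limma adjusted p = 0.000482). The unnamed gene 2610307P16Rik measured 17.99, 14.98 and 11.0 normalised CPM with tamoxifen and 28.4, 30.6 and 38.9 with oil (log2 fold change -1.12 ± 0.20 (SE), limma adjusted p = 0.00901). BC035044 overlaps Clec2i, a C-type lectin gene on the opposite strand that also fell, by 1.41 on the log2 scale; their exons do not overlap. With 1 LT library left out, the adjusted p reached 0.052 without oil library C for Mmp2, 0.0946 without oil library C for Adam11, 0.093 without oil library C for 2610307P16Rik, 0.101 without oil library A for Slc43a2 and 0.128 without oil library C for Dpp4.

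**Figure D2:**
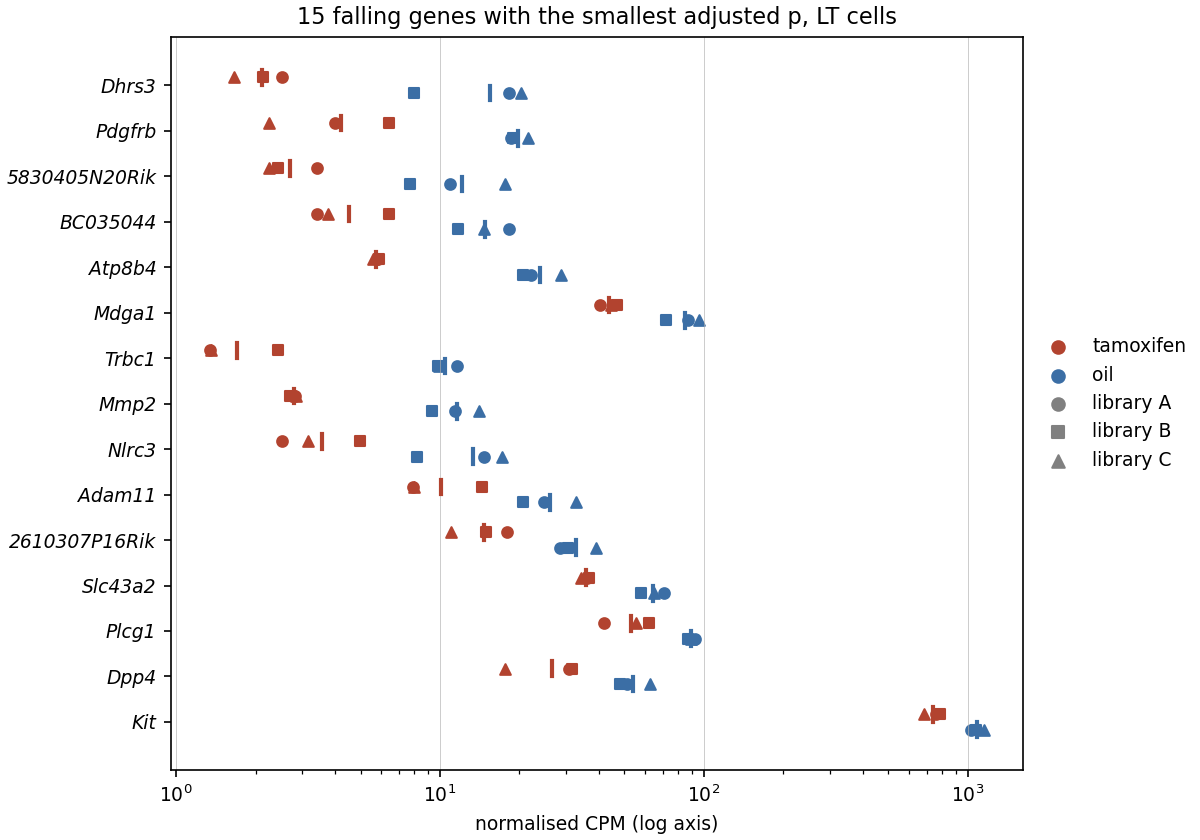
The 15 falling genes with the smallest adjusted p in LT cells. Each row is a gene, the x axis is normalised CPM on a log scale, points are libraries (tamoxifen red above oil blue, shapes name libraries A, B and C) and short bars are group means. In all 15 rows, as in all 40 falling genes, the tamoxifen libraries lie left of the oil libraries. The rows run from Dhrs3 with at most 2.53 against at least 7.94 to Kit with at most 782 against at least 1032.

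The other falling genes have varied functions. Mpo, the myeloperoxidase of granulocyte precursors, measured 17.99, 25.5 and 15.8 normalised CPM with tamoxifen and 97.2, 99.5 and 82.3 with oil (log2 fold change -2.20 ± 0.41 (SE), limma adjusted p = 0.0453, 2.84e-08 to 0.207 over the 22 alternatives that tested it). Its tamoxifen libraries all lay far below its oil libraries. In oil Mpo averaged 93.0 ± 9.33 in LT cells, 1099 ± 133 in ST cells and 811 ± 198 in MPPs (SD, n = 3 each). Gfi1, a repressor needed for granulocytes, averaged 5.19 ± 2.97 with tamoxifen and 12.1 ± 2.93 with oil, and Zbtb16, the PLZF transcription factor, 8.56 ± 1.73 with tamoxifen and 25.2 ± 3.86 with oil (SD, n = 3 each). Both are transcriptional repressors of haematopoietic cells. Gstm1, a glutathione transferase, averaged 70.6 ± 9.13 with tamoxifen and 122 ± 6.37 with oil. Trf, transferrin, averaged 11.8 ± 2.06 with tamoxifen and 22.2 ± 3.74 with oil. Ndrg1, a stress-responsive gene, averaged 37.0 ± 4.89 with tamoxifen and 64.6 ± 11.6 with oil. Each of these 3 genes was lower in all tamoxifen libraries than in any oil library. The chemokine gene Ccl3 averaged 1.02 ± 0.741 with tamoxifen and 5.95 ± 2.17 with oil, with 9 reads in the tamoxifen libraries and 70 in oil. Slco3a1, Kif21b, Itpr2, Fhdc1, Ntng2, Ypel3, Gm2a, Gm17419, Gm1337 (now Ankrd63) and Pde2a fell as well, with log2 fold changes of -2.03 (Gm1337) to -0.65 (Itpr2). The identifier listed as Pde2a carries another name in the GENCODE annotation, and its exons overlap those of Arap1, so its reads are uncertain. Of the 40 falling genes 6 averaged under 10 normalised CPM in both groups, and the limma fold change understates the ratio of such low genes. Without 1 LT library the adjusted p reached 0.139 without oil library A for Mpo, 0.309 without oil library C for Gfi1, 0.215 without oil library C for Zbtb16, 0.139 without oil library A for Gstm1, 0.139 without oil library A for Trf, 0.315 without oil library C for Ndrg1 and 0.158 without oil library C for Ccl3.

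The rising genes were led by Flrt1 in size, which did not pass without tamoxifen library A (limma adjusted p = 0.0618). The call of Flrt1 was lost in 4 of the 6 fits that left out 1 LT library. Timm8a1, Creb5, Coro2a, Ldha and Slfn9 were the 5 rising genes that passed both with and without library A. Flrt1, a leucine-rich repeat membrane protein, measured 55.2, 46.1 and 39.2 normalised CPM in tamoxifen libraries A, B and C, against 3.44, 4.17 and 5.15 in oil libraries A, B and C, an 11.0-fold higher mean with tamoxifen. The lowest tamoxifen library stood far above the highest oil library (log2 fold change 3.19 ± 0.55 (SE), limma adjusted p = 0.0159, 5.75e-07 to 0.0912 over the 22 alternatives that tested it). The gene lies inside Macrod1 on the opposite strand without sharing exons, and Macrod1 averaged 5.80 ± 2.40 with tamoxifen and 5.57 ± 2.54 with oil (SD, n = 3 each). Creb5, a transcription factor of the CREB family, measured 6.69, 4.71 and 6.46 normalised CPM with tamoxifen and 1.35, 0.404 and 0.975 with oil, on 59 and 10 reads in the tamoxifen and oil libraries (log2 fold change 1.88 ± 0.36 (SE), limma adjusted p = 0.0153). Ldha, the lactate dehydrogenase subunit that turns pyruvate into lactate, measured 537, 537 and 562 normalised CPM with tamoxifen and 387, 384 and 316 with oil (log2 fold change 0.59 ± 0.12 (SE), limma adjusted p = 0.0159, 0.000181 to 0.207 over the 22 alternatives that tested it). Its tamoxifen libraries were nearly equal and stood above all oil libraries. Timm8a1, a chaperone of mitochondrial protein import, measured 84.6, 62.1 and 101 normalised CPM with tamoxifen and 38.9, 52.1 and 37.2 with oil (log2 fold change 0.92 ± 0.18 (SE), limma adjusted p = 0.0153). Coro2a, a coronin that binds actin, measured 193, 214 and 215 normalised CPM with tamoxifen and 138, 118 and 142 with oil (log2 fold change 0.64 ± 0.12 (SE), limma adjusted p = 0.0153). All of these groups stood apart, in Timm8a1 by the narrowest margin. With 1 LT library left out, the adjusted p reached 0.0912 without oil library A for Flrt1, 0.0867 without oil library B for Creb5, 0.162 without oil library C for Ldha, 0.115 without oil library C for Timm8a1 and 0.0991 without oil library B for Coro2a.

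Oas2, the oligoadenylate synthetase that senses double-stranded RNA, measured 76.3, 57.8 and 41.0 normalised CPM with tamoxifen and 25.7, 16.6 and 31.9 with oil (log2 fold change 1.21 ± 0.25 (SE), limma adjusted p = 0.0243). Slfn9, a member of the interferon-regulated Schlafen family, measured 157, 73.2 and 71.4 normalised CPM with tamoxifen and 46.6, 43.2 and 43.3 with oil (log2 fold change 1.06 ± 0.21 (SE), limma adjusted p = 0.0221). Library A was the highest in both genes, with Slfn9 far above its level in the other tamoxifen libraries, and near-identical Schlafen copies can share reads. Selp, P-selectin of platelets and endothelium, measured 21.3, 16.7 and 17.6 normalised CPM with tamoxifen and 8.44, 3.90 and 5.99 with oil (log2 fold change 1.50 ± 0.31 (SE), limma adjusted p = 0.022). F5, coagulation factor V, measured 38.2, 19.5 and 30.8 normalised CPM with tamoxifen and 14.3, 11.2 and 7.38 with oil (log2 fold change 1.35 ± 0.29 (SE), limma adjusted p = 0.0276). Neither gene overlapped between groups. Selp and F5 are neighbours on 1 chromosome, and both share exon sequence with an antisense gene of the table, Gm16548. Eif2s1, the alpha subunit of initiation factor eIF2, measured 245, 149.9 and 156 normalised CPM with tamoxifen and 112, 119 and 112 with oil (log2 fold change 0.64 ± 0.14 (SE), limma adjusted p = 0.0413). Eif2s2, its beta subunit, averaged 199 ± 35.7 with tamoxifen and 130.3 ± 11.3 with oil (SD, n = 3 each). Both subunits were highest in library A and stood above oil in the other tamoxifen libraries too. Wdhd1, a replisome protein, measured 149, 120.0 and 118 normalised CPM with tamoxifen and 96.8, 79.5 and 72.0 with oil (log2 fold change 0.64 ± 0.14 (SE), limma adjusted p = 0.0276). Ncaph, a condensin subunit, measured 47.7, 34.1 and 33.2 normalised CPM with tamoxifen and 22.2, 22.5 and 19.9 with oil (log2 fold change 0.79 ± 0.18 (SE), limma adjusted p = 0.0392). These 2 genes act in dividing cells, and library A was again the highest. Ankrd49, which shares exon sequence with Mre11a, measured 82.2, 55.8 and 47.1 normalised CPM with tamoxifen and 33.9, 24.9 and 31.6 with oil. Ccdc41, now named Cep83, a centriole protein, measured 105, 82.3 and 81.0 normalised CPM with tamoxifen and 58.9, 59.4 and 55.6 with oil. Cops2, a subunit of the COP9 signalosome, measured 201, 119 and 122 normalised CPM with tamoxifen and 77.8, 88.2 and 91.8 with oil. Groups did not overlap in these genes, with log2 fold changes of 0.98, 0.61 and 0.73. The remaining rising genes were Rgs7bp, Pitrm1, a mitochondrial peptidase, Alox5, the 5-lipoxygenase, and Clca1 (now Clca3a1). Library A was the tamoxifen library farthest from oil in 16 of the 20 rising and in 21 of the 40 falling genes. Leaving out 1 LT library raised the adjusted p to at most 0.12 without oil library B for Oas2, 0.124 without oil library C for Slfn9, 0.123 without oil library B for Selp, 0.215 without oil library C for F5 and 0.186 without oil library C for Eif2s1.

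**Figure D3:**
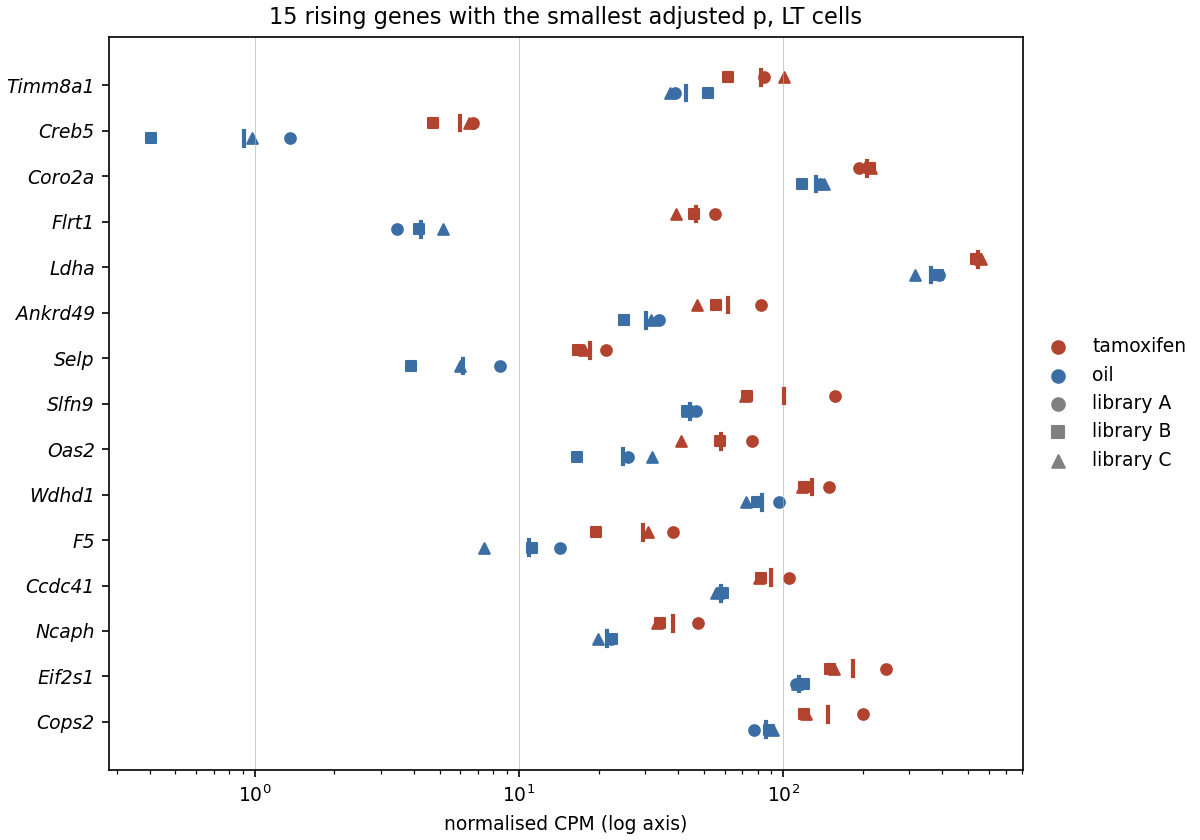
The 15 rising genes with the smallest adjusted p in LT cells. Each row is a gene, the x axis is normalised CPM on a log scale, points are libraries (tamoxifen red above oil blue, shapes name libraries A, B and C) and short bars are group means. The tamoxifen points lie right of the oil points in every row, as they do in all 20 rising genes. Flrt1 shows the widest gap, with at least 39.2 against at most 5.15.

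Promoters of the called genes were read from RefSeq (mouse build GRCm38.p6, 250 bases before to 50 after each listed start), which matched 45 of the 60 genes by symbol. A core of the interferon-stimulated response element, GAAA, any 2 bases and GAAA again on either strand, lay in a promoter of 4 of the 18 rising genes matched (22.2%: Slfn9, Eif2s1, Coro2a and Clca1), in 2 of the 27 falling genes matched (7.41%) and in 3.83% of the 10390 matched genes of the table. It lay in 17 of the 38 matched genes of the interferon list (44.7%). The E-box CACGTG lay in 3 of the 18 rising genes (16.7%), 0 of the 27 falling genes and 11.6% of all matched genes. The palindromic estrogen response element (GGTCA and TGACC separated by any 3 bases) was found in 0 of the 45 genes and in 1 of the 10390. The E2F sites TTTCCCGC and TTTGGCGC, on either strand, lay in 2.36% and 1.08% of all matched genes, in 7 and 6 of the 33 matched DNA replication genes, and in 0 and 1 of the rising genes; none of the falling genes held either. Promoters of 3 rising genes, chosen for holding the interferon core or E-boxes, are shown with the set letters of these motifs in capitals (TTTC where the core is on the other strand), 5′ to 3′ on the gene's strand. In Slfn9 (chr11:82991781-82992080, minus strand) the interferon core begins 45 bases upstream of the start, and in Eif2s1 (chr12:78861822-78862121, plus strand) 212 bases upstream. In Ldha (chr7:46845554-46845853, plus strand) there are E-boxes 145 and 48 bases upstream. No matches overlap in these 3 promoters. A match is a description of the letters and was not tested as a site.
Slfn9: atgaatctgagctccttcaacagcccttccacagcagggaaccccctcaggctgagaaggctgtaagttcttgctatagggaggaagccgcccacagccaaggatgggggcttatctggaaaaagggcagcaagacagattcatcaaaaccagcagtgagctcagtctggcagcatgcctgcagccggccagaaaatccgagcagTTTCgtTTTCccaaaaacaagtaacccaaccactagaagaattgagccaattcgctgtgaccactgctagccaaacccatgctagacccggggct
Eif2s1: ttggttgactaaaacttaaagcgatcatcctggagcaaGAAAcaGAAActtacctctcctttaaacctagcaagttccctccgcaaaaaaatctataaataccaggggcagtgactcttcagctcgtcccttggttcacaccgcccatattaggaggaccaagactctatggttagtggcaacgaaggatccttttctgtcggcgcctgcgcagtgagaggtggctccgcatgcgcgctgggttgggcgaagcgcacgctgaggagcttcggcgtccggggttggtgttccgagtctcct
Ldha: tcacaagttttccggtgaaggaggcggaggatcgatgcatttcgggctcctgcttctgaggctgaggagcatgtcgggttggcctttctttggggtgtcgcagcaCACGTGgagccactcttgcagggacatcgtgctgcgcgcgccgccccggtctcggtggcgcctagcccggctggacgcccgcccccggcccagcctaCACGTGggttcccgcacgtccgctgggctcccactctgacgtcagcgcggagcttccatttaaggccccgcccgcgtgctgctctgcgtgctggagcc

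Gene lists of cell types and pathways were described by their counts beside the same counts over all genes (20 higher and 40 lower of 14419, median log2 fold change -0.02). Over all genes 48.1% lay above 0, and the LT groups stood apart upward in 9.04% and downward in 9.36%. Named members were mostly chosen for the smallest p, which favours groups that stand apart. The lists were chosen with earlier results of these data known, so counts of called members are not independent of the calls. The multipotent and lymphoid-primed progenitor list had 3 of 24 members that fell, none that rose, 5 above 0 and a median of -0.77, which was also -0.77 without library A. The members that fell were 5830405N20Rik, Dntt and Satb1. Without library A 5830405N20Rik alone passed. Cd34, a surface protein of progenitors, measured 54.3, 119 and 77.7 normalised CPM with tamoxifen and 171, 125 and 218 with oil (limma adjusted p = 0.0573). Its groups did not overlap, but the B libraries were close. The granulocyte-monocyte list had 2 of 24 members that fell, Mpo and Gfi1, with 6 above 0 and a median of -0.39. Without library A neither passed, 8 lay above 0 and the median was -0.14. Summed levels were 483, 778 and 669 with tamoxifen and 844, 852 and 871 with oil. The list of long-term stem cell genes had 0 of 27 members past the threshold, 7 above 0 and a median of -0.18. Gpr56, an adhesion receptor of stem cells, measured 954, 1377 and 1185 normalised CPM with tamoxifen and 1525, 1637 and 1697 with oil (limma adjusted p = 0.0856). Hlf, a transcription factor of stem cells, measured 741, 735 and 616 normalised CPM with tamoxifen and 1063, 1048 and 1229 with oil (limma adjusted p = 0.0896). Mecom, the Evi1 transcription factor gene, measured 342, 324 and 319 normalised CPM with tamoxifen and 246, 257 and 247 with oil (limma adjusted p = 0.307). These groups did not overlap, lower in Gpr56 and Hlf and higher in Mecom. Of the 27 genes, 5 were lower and 2 higher at an unadjusted limma p under 0.05. The groups stood apart downward in 5 and upward in 2. Of 15 sort markers measured, Kit fell and 2 lay above 0 (6 without library A). Slamf1, the CD150 marker, measured 44.2, 34.4 and 54.0 normalised CPM with tamoxifen and 28.2, 30.0 and 18.2 with oil (limma adjusted p = 0.315). Flt3, Procr, Cd48, Cd244, Il7r and Thy1 had log2 fold changes of -1.25, -0.65, -0.71, -0.88, -1.65 and -0.62, none past the threshold. The remaining 6 markers (Ly6a, Cd9, Esam, Itga2b, Fcgr2b and Fcgr3) lay between -0.40 and 0.10.

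Of 21 measured megakaryocyte and platelet genes, Selp rose, 15 lay above 0 and the median was 0.25 (0.33 without library A, where Selp did not pass). Vwf, a marker of platelet-biased stem cells, measured 162, 149.9 and 191 normalised CPM with tamoxifen and 109, 122 and 89.8 with oil (limma adjusted p = 0.0663). Slc14a1, a urea transporter, measured 243, 179.6 and 213 normalised CPM with tamoxifen and 151, 157 and 132 with oil (limma adjusted p = 0.091). Rap1b, a small GTPase of platelet activation, measured 146, 139 and 182 normalised CPM with tamoxifen and 117, 104 and 107 with oil (limma adjusted p = 0.13). Every tamoxifen library stood above every oil library in these 3 genes. The 22 erythroblast genes had 0 members past the threshold and 16 above 0, with a median of 0.25 (0.14 without library A) and summed levels of 3778, 2959 and 2961 with tamoxifen and 2609, 3162 and 2626 with oil. Epor, the erythropoietin receptor, measured 21.6, 33.0 and 24.8 normalised CPM with tamoxifen and 18.03, 19.5 and 14.3 with oil (limma adjusted p = 0.429).

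Markers of other cells that a sort could hold were low in sum. Neutrophil genes summed to 69.4, 103 and 73.8 with tamoxifen and 87.0, 124 and 79.0 with oil, with 0 of 13 called and 2 above 0. B cell genes summed to 49.2, 85.7 and 65.7 with tamoxifen and 81.8, 131 and 104 with oil, with 0 of 9 called and 1 above 0; the defining genes Pax5, Ms4a1 and Vpreb1 are not among the genes of the table. Of 9 T and NK cell genes Trbc1 fell and 3 lay above 0, with sums of 37.0, 22.1 and 26.6 with tamoxifen and 36.8, 42.4 and 42.8 with oil, and the T cell genes Cd3e, Cd3d and Cd3g are likewise not among the genes of the table. Macrophage and monocyte genes had 0 of 14 called and 5 above 0 (9 without library A), with a median of -0.15 (0.08 without library A), and stromal and endothelial genes 0 of 7 called and 2 above 0. In oil every LT library lay below every ST library in 20 of 24 granulocyte-monocyte genes, and below every MPP library in 20. For the multipotent and lymphoid-primed list these counts were 9 and 17 of 24, while 7 genes stood above every ST library. The part of mature cells, ST cells or MPPs in the falls of lymphoid and granulocyte genes was not tested.

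Genes of dividing cells lay mostly above 0, and few passed singly. Of 42 mitosis genes Ncaph rose, 39 lay above 0, the groups stood apart upward in 23, and the median was 0.52. Over all genes the groups stood apart upward in 9.04%. Without library A 40 lay above 0 and the median was 0.36, with 0 members called. Summed levels were 6767, 3708 and 3718 with tamoxifen and 3088, 3184 and 2518 with oil, with library A far above the rest. Hmmr, a spindle protein, measured 138, 81.5 and 87.9 normalised CPM with tamoxifen and 56.6, 63.9 and 52.2 with oil (limma adjusted p = 0.0731). Ccnb2, a mitotic cyclin, measured 105, 71.5 and 49.8 normalised CPM with tamoxifen and 46.6, 40.5 and 33.3 with oil (limma adjusted p = 0.0735). Ncapg, another condensin subunit, measured 75.4, 61.2 and 61.5 normalised CPM with tamoxifen and 43.5, 45.6 and 34.1 with oil (limma adjusted p = 0.074). None of these passed, although their groups did not overlap. Of 41 DNA replication genes 0 passed, 34 lay above 0 and the median was 0.24 (0.26 without library A). Orc6, of the origin recognition complex, measured 43.9, 36.7 and 32.0 normalised CPM with tamoxifen and 20.9, 21.4 and 21.6 with oil (limma adjusted p = 0.0537). Prim1, a primase subunit, measured 73.9, 56.6 and 63.6 normalised CPM with tamoxifen and 46.4, 41.3 and 38.0 with oil (limma adjusted p = 0.0554). Rrm1, of ribonucleotide reductase, measured 228, 189 and 181 normalised CPM with tamoxifen and 158, 152 and 122 with oil (limma adjusted p = 0.0972). In these 3 genes every tamoxifen library stood above every oil library. Among 17 G1 cyclins and kinases 0 passed and 14 lay above 0 (median 0.27, and 0.33 without library A). Ccne2, cyclin E2, measured 26.9, 23.5 and 25.4 normalised CPM with tamoxifen and 15.7, 9.83 and 14.9 with oil (limma adjusted p = 0.0663). Among 21 CDK inhibitors and quiescence genes Ypel3 and Gfi1 fell and 5 lay above 0 (median -0.36, and -0.21 without library A, where none passed). Ccng2, a cyclin that restrains division, measured 20.7, 28.7 and 26.9 normalised CPM with tamoxifen and 42.0, 35.7 and 46.4 with oil (limma adjusted p = 0.081). Rbl1, the p107 pocket protein, measured 74.8, 73.2 and 78.6 normalised CPM with tamoxifen and 66.2, 47.5 and 59.2 with oil (limma adjusted p = 0.159). Ccng2 was lower and Rbl1 higher in all tamoxifen libraries. 

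The interferon response list had 44 of 50 members above 0 and a median of 0.38, which was 0.39 without library A, with 44 again above 0. Oas2 rose and no member fell. The groups stood apart upward in 19 members and downward in 3, beside 9.04% and 9.36% of all genes. Eif2ak2, the RNA-activated kinase PKR, measured 218, 143 and 146 normalised CPM with tamoxifen and 114, 102 and 114 with oil (limma adjusted p = 0.0615). Isg20, an exonuclease, measured 70.9, 40.9 and 35.6 normalised CPM with tamoxifen and 23.03, 27.6 and 26.6 with oil (limma adjusted p = 0.0997). Isg15, a ubiquitin-like modifier, measured 4.31, 9.56 and 8.27 normalised CPM with tamoxifen and 4.27, 0.942 and 2.09 with oil (limma adjusted p = 0.105). Every tamoxifen library stood above every oil library in these 3 genes, in Isg15 by little in library A. Without library A Oas2 did not pass and Ifitm3, a membrane protein that restricts viruses, did. Ifitm3 measured 164, 309 and 283 normalised CPM with tamoxifen and 208, 201 and 195 with oil, with library A below the oil libraries. Of 8 Schlafen genes Slfn9 rose and 6 lay above 0. MHC genes had 0 of 20 called and 4 above 0, with a median of -0.32 (-0.13 without library A).

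Ribosome biogenesis had 0 of 35 members called, 33 above 0 and a median of 0.24 (0.32 without library A). Nop58, a core protein of small nucleolar ribonucleoproteins, measured 342, 246 and 262 normalised CPM with tamoxifen and 202, 195 and 193 with oil (limma adjusted p = 0.0537). Npm1, nucleophosmin, measured 3822, 1767 and 2178 normalised CPM with tamoxifen and 1618, 1521 and 1414 with oil (limma adjusted p = 0.0708). Gnl3, nucleostemin, measured 141, 119.7 and 134 normalised CPM with tamoxifen and 95.3, 100.3 and 82.0 with oil (limma adjusted p = 0.0731). The groups did not overlap in any of these 3 genes, and library A was the highest. Of 39 translation initiation factors Eif2s1 and Eif2s2 rose and 32 lay above 0 (median 0.17). Without library A neither passed, Eif3i, of initiation factor eIF3, did, and the median was 0.16. The 79 ribosomal protein genes had 0 members called, 49 above 0 and a median of 0.07. Without library A all 79 lay above 0 and the median was 0.43. Copies and pseudogenes of these genes can share reads. Myc, a transcription factor that promotes ribosome synthesis, measured 577, 301 and 324 normalised CPM with tamoxifen and 232, 248 and 296 with oil (limma adjusted p = 0.174).

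Mitochondrially encoded genes had 0 of 13 members called and 13 above 0, with a median of 0.67. This rested on library A: without it the median was 0.10 and 11 lay above 0. mt-Nd1, a subunit of complex I, measured 3964, 1003 and 1098 normalised CPM with tamoxifen and 928, 889 and 916 with oil. Nuclear genes of oxidative phosphorylation had 0 of 41 members called, 30 above 0 and a median of 0.16 (38 above 0 and a median of 0.32 without library A). Among 25 glycolysis genes Ldha rose and 7 lay above 0, with a median of -0.13, which was 0.07 without library A. Pfkl, a phosphofructokinase, measured 20.1, 44.7 and 42.5 normalised CPM with tamoxifen and 51.8, 50.7 and 48.3 with oil (limma adjusted p = 0.191). Gapdh, a glycolytic dehydrogenase, measured 134, 99.2 and 121 normalised CPM with tamoxifen and 89.7, 91.1 and 88.4 with oil (limma adjusted p = 0.21). The sign of the list's median depended on library A, while Ldha passed in both fits.

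Estrogen receptor genes and targets did not pass in LT cells. Esr1, the gene of estrogen receptor alpha, measured 20.4, 28.7 and 19.7 normalised CPM in tamoxifen libraries A, B and C, against 39.1, 38.4 and 43.9 in oil libraries A, B and C (limma adjusted p = 0.186); every tamoxifen library lay below every oil library. Esr2 is not among the genes of the table. Gper1 (listed as Gpr30), a membrane receptor for estrogen, averaged 1.23 ± 0.927 with tamoxifen and 0.763 ± 0.557 with oil (SD, n = 3 each). Greb1, an early target of estrogen receptor alpha, had 12 reads in the tamoxifen libraries and 0 in oil (limma adjusted p = 0.179). With oil set to 3 reads in all the ratio was 4.75. The 95% interval of the ratio of reads, which covers counting error only, began at 3.30. Nrip1, a corepressor induced by estrogen in other cells, measured 236, 224 and 223 normalised CPM with tamoxifen and 308, 306 and 315 with oil (limma adjusted p = 0.0805). Its tamoxifen libraries lay close together and below every oil library. Of 9 receptors and coregulators 3 lay above 0 (median -0.11), and 1 without library A (median -0.21), and of 15 targets 7 (median -0.06, and 0.12 without library A).

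The other lists had few calls. Of 18 niche adhesion and retention genes Selp rose and Dpp4 fell, and of 26 glutathione transferases and antioxidant genes Gstm1 fell. Without library A Dpp4 passed, and Selp and Gstm1 did not. JAK-STAT signalling genes had 0 of 19 called, with a median of -0.08 (0.02 without library A). Socs2, a feedback inhibitor of cytokine signalling, measured 39.1, 59.5 and 48.3 normalised CPM with tamoxifen and 21.4, 21.7 and 26.9 with oil (limma adjusted p = 0.0805). Jak3, a kinase of lymphoid cytokine receptors, measured 52.2, 78.9 and 64.2 normalised CPM with tamoxifen and 102, 85.7 and 99.6 with oil (limma adjusted p = 0.105). Socs2 was higher and Jak3 lower in all tamoxifen libraries. Imprinted genes had 0 of 16 called and 4 above 0, with a median of -0.20. Rian, a noncoding RNA of the Dlk1-Dio3 cluster, measured 2.83, 4.14 and 5.56 normalised CPM with tamoxifen and 10.1, 22.2 and 16.3 with oil (limma adjusted p = 0.0514). Meg3, of the same cluster, measured 12.6, 8.70 and 16.1 normalised CPM with tamoxifen and 26.2, 37.3 and 23.5 with oil (limma adjusted p = 0.252). Neither overlapped between groups, and both were lower with tamoxifen. Hoxa and Hoxb genes had 0 of 13 called and 3 above 0, with a median of -0.29. Hoxb3, a member of this family, measured 1.93, 4.42 and 3.76 normalised CPM with tamoxifen and 7.40, 9.83 and 7.66 with oil (limma adjusted p = 0.2). Nuclear long noncoding RNAs had 0 of 12 called with all libraries and Malat1 without library A. Malat1, an abundant nuclear RNA, measured 6733, 5008 and 5353 normalised CPM with tamoxifen and 7340, 7412 and 7242 with oil (limma adjusted p = 0.168). Gas5, a host of small nucleolar RNAs, measured 762, 718 and 891 normalised CPM with tamoxifen and 548, 569.8 and 558 with oil (limma adjusted p = 0.105). Malat1 was lower and Gas5 higher in all tamoxifen libraries. The lists of p53 targets (22 measured), the BCL2 family (14), the unfolded protein and integrated stress response (28), cholesterol synthesis (24) and immediate early genes (18) had 0 calls, with medians of -0.02, 0.03, 0.11, -0.01 and -0.18, and without library A of 0.03, 0.14, 0.07, 0.04 and -0.08 in the same order. Hspa5, the endoplasmic reticulum chaperone BiP, measured 451, 469 and 460.2 normalised CPM with tamoxifen and 298, 365 and 326 with oil (limma adjusted p = 0.215). Bcl2, which restrains apoptosis, measured 129, 99.4 and 126 normalised CPM with tamoxifen and 104, 75.0 and 76.2 with oil (limma adjusted p = 0.211). The groups overlapped in Bcl2 and not in Hspa5.

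**Figure D4:**
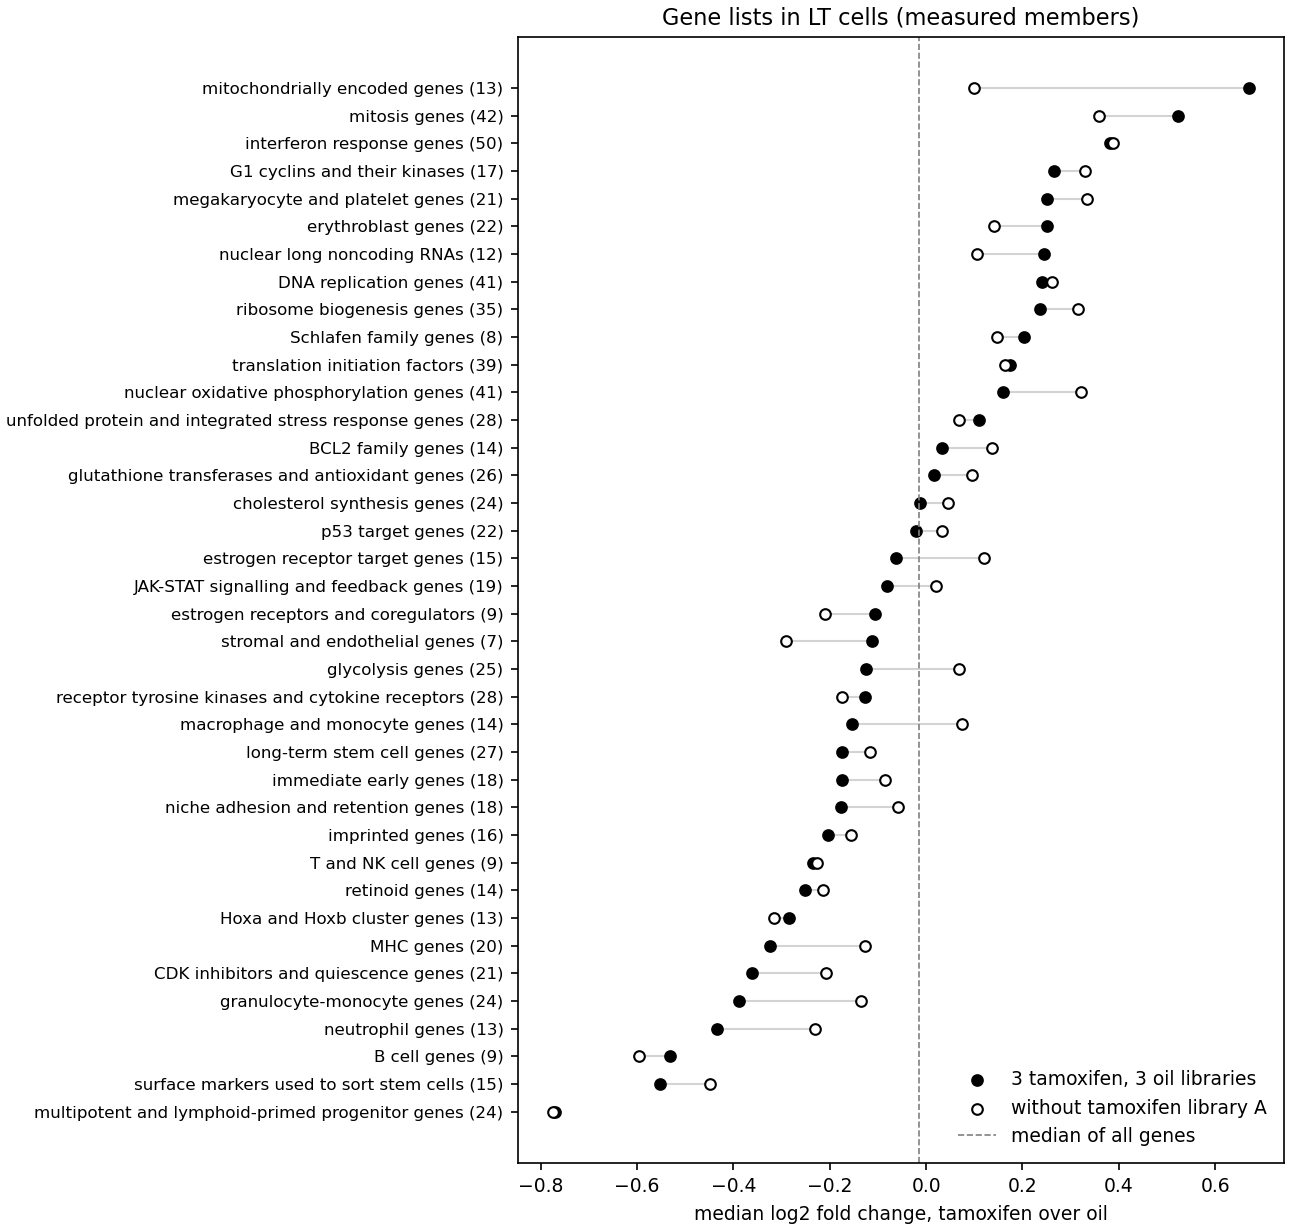
Median log2 fold change (tamoxifen over oil) of each gene list in LT cells, with the number of measured members in brackets. Filled circles are the fit with all libraries and open circles the fit without tamoxifen library A; the dashed line is the median of all genes. The multipotent and lymphoid-primed progenitor list lies lowest in both fits (-0.77), the interferon list hardly moves (0.38 and 0.39), and the mitochondrially encoded genes move most (0.67 and 0.10).

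Among the genes that passed only without library A, 16 rose and 10 fell. Pik3cd, the delta catalytic subunit of phosphoinositide 3-kinase, measured 81.3, 135 and 130.0 normalised CPM with tamoxifen and 88.1, 72.0 and 76.5 with oil (log2 fold change 0.75 without library A). Library A lay among the oil libraries. Tcf7, a transcription factor of early T cells, measured 18.9, 8.42 and 5.86 normalised CPM with tamoxifen and 26.2, 38.4 and 26.3 with oil (log2 fold change -1.94 without library A). Smad3, a mediator of TGF-beta signalling, measured 89.4, 70.6 and 59.7 normalised CPM with tamoxifen and 99.9, 96.5 and 109.9 with oil (log2 fold change -0.64 without library A). Cd69, an early activation marker, measured 2.53, 1.28 and 1.35 normalised CPM with tamoxifen and 3.02, 8.75 and 6.55 with oil (log2 fold change -1.52 without library A). In these 3 genes library A was the tamoxifen library nearest to oil. Sox6, Syne2, Tns3, Akap13, 2900026A02Rik and A930001N09Rik fell as well, beside Malat1, and Anxa6, Hint1, Gnb2l1, Nme2, Tomm5, Nutf2-ps1, Hist1h2bm, Cdc7 and Tmem14c were among those that rose, beside Eif3i and Ifitm3.

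The 60 genes were then read in ST cells and MPPs, whose values do not enter the LT fold changes. Their libraries did enter the common estimate of spread behind the 60 calls, so the choice of these genes is not independent of them. LT and ST libraries carry the same letters, and whether they came from the same mice is not stated in the sources used here. In ST cells 9.61% of all genes passed, 6.01% upward and 3.6% downward. All 20 genes that rose in LT cells had a log2 fold change above 0 in ST cells (50.5% of all genes did), and 8 rose (40%, and 0.923% of the 867 genes that rose in ST cells). Of the 40 that fell in LT cells, 32 lay below 0 in ST cells and 18 fell (45%, and 3.47% of the 519). None passed in the opposite direction. The median log2 fold change was 0.60 for the LT rising genes and -0.69 for the LT falling genes in ST cells. Pdgfrb fell by 1.81 on the log2 scale in ST cells (limma adjusted p = 0.000221), Dhrs3 by 1.48 (adjusted p = 0.00196), Nlrc3 by 1.99 (adjusted p = 0.000206) and Mmp2 by 1.71 (adjusted p = 0.000692). F5 rose by 1.46 (adjusted p = 0.00238), Ldha by 0.68 (adjusted p = 0.000829) and Coro2a by 0.61 (adjusted p = 0.00277). The 8 genes that fell in LT cells and lay above 0 in ST cells were Mpo (log2 fold change 0.99, limma adjusted p = 0.159), Gstm1, Atp8b4, Trf, Gm2a, Gfi1, Mc5r and BC035044.

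In MPPs, treated for 1 week, 0.0555% of all genes passed, 0.0347% upward and 0.0208% downward. Of the LT genes 18 of 20 rising and 34 of 40 falling ones had the same direction (50% of all genes lay above 0), and 1 passed, Pdgfrb (log2 fold change -1.35, limma adjusted p = 0.0491). MPPs differ from LT cells in both population and duration, which cannot be told apart. The difference between the tamoxifen effects in LT and ST cells was tested in the same fit and passed in 8 genes (0.0555%), 3 of them among the 60. Atp8b4 averaged 5.74 ± 0.153 with tamoxifen and 23.9 ± 4.37 with oil in LT cells, and 179 ± 17.7 with tamoxifen and 132 ± 21.1 with oil in ST cells (SD, n = 3 each). The LT effect minus the ST effect was -2.32 ± 0.34 on the log2 scale (limma adjusted p = 0.0212). For BC035044 it was -1.56 (adjusted p = 0.0452) and for Gstm1 -1.24 (adjusted p = 0.0389). With edgeR 0 genes passed and with DESeq2 125, and 1860 had an unadjusted p under 0.05. The count was 0 without LT oil library A, oil library C or tamoxifen library C, 1 without oil library B, 53 without tamoxifen library B and 122 without tamoxifen library A. For LT against MPP effects 0 genes passed with limma (0%) or edgeR and 11 with DESeq2, and 808 had an unadjusted p under 0.05.

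**Figure D5:**
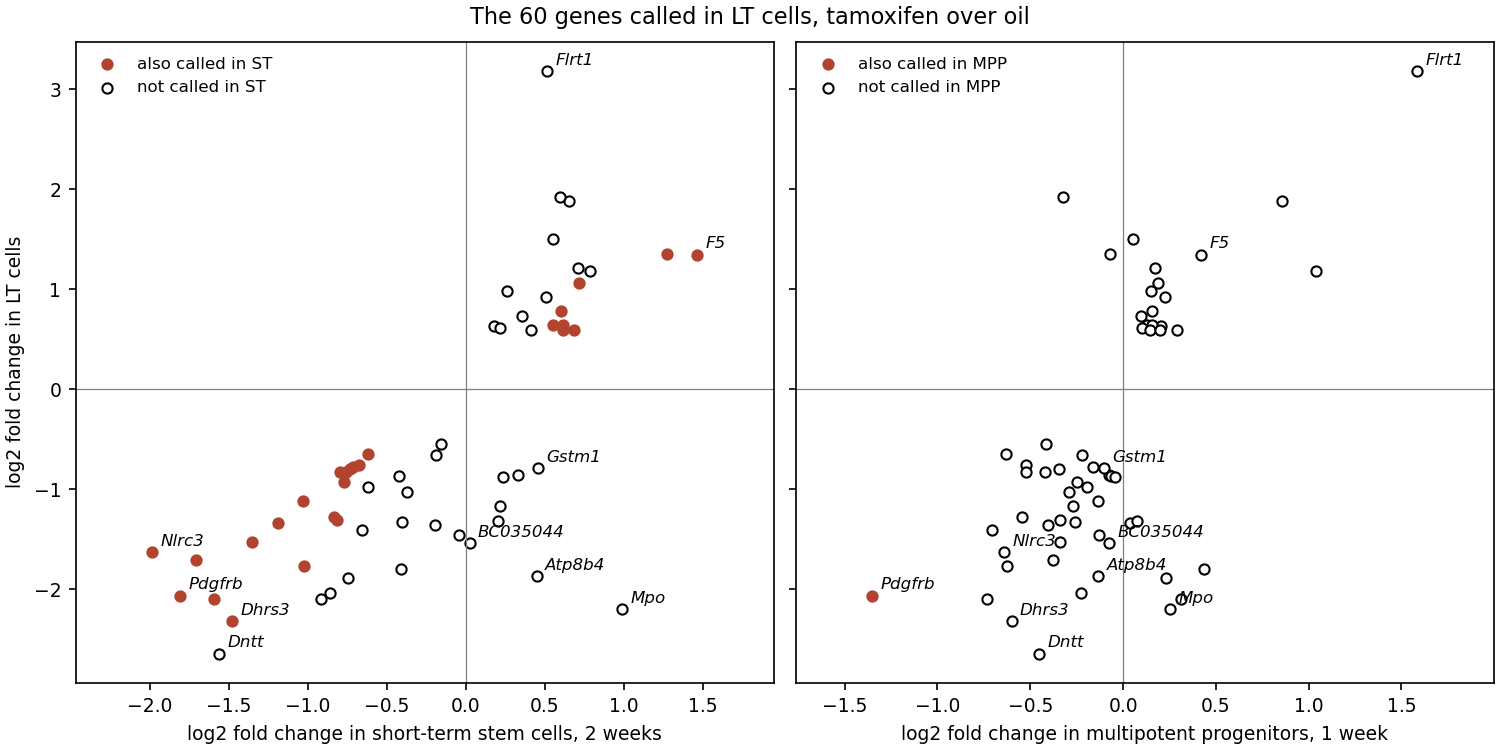
Log2 fold change (tamoxifen over oil) of the 60 genes called in LT cells (y axis) against the same in ST cells after 2 weeks (left) and in MPPs after 1 week (right). Filled points also passed in that population, 26 in ST cells and 1 in MPPs. All 20 rising genes lie right of 0 in ST cells, and Atp8b4, Gstm1 and Mpo lie on the other side from their LT direction.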

How the data were processed

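RNA from sorted bone marrow cells was prepared with the Picopure and Ovation RNA-Seq System V2 kits, per the labels' protocols. The submitters' processing notes name Picard, cutadapt, RSEM 1.17, limma and build NCBIM37; annotation, strand setting and scaling are not stated in the sources used here. The deposited normalised CPM (unit: signal) of 14419 genes in 18 libraries equal a whole read count plus 0.5, the sum multiplied by 1 constant per library; 100% of values came out whole within 0.001 reads. Each gene had a value of at least 1 in 6 or more libraries.

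The members, gene lists and tests were chosen with earlier results of these data known. The test was limma 3.58.1 in R 4.3.3 on log2(value + 1), with all 18 libraries, 1 mean per group and a trended, robust spread, adjusted by Benjamini-Hochberg over 14419 genes at 0.05. Fold changes are on that scale and understate changes of low genes. edgeR 4.0.16 and DESeq2 1.42.0 were run on recovered reads as alternatives. The fits were also run on simulated reads with known changes. That simulation held no outlying library like tamoxifen library A and no differences between populations, so it does not bear on their effects.

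All called genes could be named; library values were given for the 15 rising and 15 falling genes with the smallest adjusted p, and for up to 4 members of a list with the smallest p, sort markers and estrogen receptor genes always. Genes that passed only without tamoxifen library A, ribosomal protein genes, Trbc2 and Macrod1 were chosen after their values were seen. Among gene identifiers 13693 matched a GENCODE name. In that annotation Coro2a, Dpp4, Rltpr, Cops2, Pitrm1, Mpo and Ndrg1 also share exon sequence with an opposite-strand gene of the table. Ntng2 shares exon sequence with a gene on its own strand. With the strand setting unknown, such genes may share reads. Depth, 2728800 to 5279821 reads in listed genes, limits the precision of low genes; ratios of reads cover counting error only.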

Additional observations from a re-analysis of the deposited data

Results flagged for a closer look

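For 8 genes the effect of tamoxifen in LT cells differed from that in ST cells (limma adjusted p between 0.0212 and 0.0452 for the difference, 3 libraries per group), and edgeR called none of these differences. The LT effect minus the ST effect, on the log2 scale, was -2.32 for Atp8b4, -2.02 for Mtus1, -1.56 for BC035044, -1.24 for Gstm1, -0.997 for Eno1, -0.86 for Cs, 1.27 for Gm10060 and 1.04 for Gm14391. Atp8b4, BC035044 and Gstm1 fell in LT cells, with ST log2 fold changes of 0.45, 0.02 and 0.46 that did not pass. The other 5 genes passed in ST cells and not in LT cells. Mtus1, Eno1, the glycolytic enolase, and Cs, citrate synthase, had log2 fold changes of -0.66, -0.15 and 0.07 in LT cells, and rose in ST cells, with 1.36, 0.85 and 0.93. Gm10060 and Gm14391 had log2 fold changes of 0.37 and 0.20 in LT cells, and fell in ST cells, with -0.90 and -0.84. Eno1 measured 132 in tamoxifen library A, below the other LT libraries at 182 to 209.9 normalised CPM.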

How the results depend on the processing

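With all libraries 20 genes were higher and 40 lower, and no called gene changed sign in an alternative that tested it. The LT libraries of all called genes did not overlap between groups, so leaving out 1 library could not change a sign. The medians of the glycolysis, estrogen target, macrophage, JAK-STAT, p53 and cholesterol lists did change sign without tamoxifen library A. Genes higher numbered 1 with only the LT libraries, 10 with LT and ST libraries, 4 without trend and robustness, 113 with library weights and 178 with DESeq2. Genes lower numbered 2, 24, 18, 122 and 122 under the same alternatives, 68 with quantile normalisation and 70 with totals without mitochondrial genes. Leaving out 1 LT library gave 1 to 149 genes higher and 8 to 181 lower. The LT effect minus the ST effect passed in 8 genes, in 2 with LT and ST libraries, 0 without trend and robustness, 99 with library weights, 0 with edgeR, 125 with DESeq2, 39 with the letter as a mouse block, and 0 to 122 with 1 LT library left out. Against MPPs it passed in 0, in 2 with library weights, 11 with DESeq2 and 0 to 5 with 1 LT library left out. Added after seeing the data, edgeR without tamoxifen library A called 18 higher and 22 lower genes and kept 20 of the 60 calls. It called 109 LT against ST differences. LT libraries alone without library A gave 253 higher and 203 lower genes and kept 55 of the 60 calls. The causes were not tested.

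Libraries of LT tamoxifen and LT oil with the same letter did not deviate together (r = 0.0115, -0.0154 and -0.0326 for A, B and C), and the labels tie them to nothing shared. LT and ST libraries with the same letter had r of 0.0756 to 0.1372 in tamoxifen and 0.0518 to 0.1009 in oil. With other letters r was -0.0968 to 0.0288 and -0.0596 to 0.0054. ST tamoxifen and ST oil libraries came from mice given different treatments. Their r was 0.1120, -0.0007 and -0.0053 for the same letters A, B and C, and -0.0804 to 0.0843 for other letters. The highest r between ST tamoxifen and ST oil, 0.1120, lay below the 0.1372 of LT and ST tamoxifen libraries A. It lay above the other same-letter values of LT and ST libraries. All same-letter values of LT and ST libraries lay above those with other letters. Whether a letter marks the same mouse was not tested. With the replicate block 40 genes were higher, 80 lower, 43 differed between LT and ST and 7 between LT and MPP.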
